A study of Bos taurus with 4 samples.

Results

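RBP2, VIL1, CDHR5, FCGBP and CCL5 are genes of the intestinal epithelium and of lymphocytes that were read in RNA-Seq libraries of bovine muscle. They are 5 of the 24616 Ensembl genes in the deposited table, of which 16288 had reads in any library. They were picked for their reads in these libraries and their difference between diets, so both are given here as a description with no test. The libraries came from longissimus dorsi muscle of 4 Aberdeen Angus steers of 1 closed herd, 2 Grass-fed and 2 Grain-fed. The Grass-fed steers had alfalfa, clover and orchard grass as pasture or hay, with bales in winter, and no grain. The Grain-fed steers, the control group, ate corn silage, shelled corn, soybean and minerals. All were on 1 diet until weaning, were assigned at random after it, and were fasted before slaughter. The ages of these steers are not in the labels. By the methods, animals on grass needed longer to reach market weight and were older where ages are stated, so age and diet cannot be told apart. The libraries are called Grass1, Grass2, Grain1 and Grain2, after the deposited columns, which name a diet and no steer, and the read totals of the diets are stated the other way round in different places of the study. Each was made from 1 animal and 1 piece of muscle, so the animal, the piece and the library cannot be told apart.

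The absorptive cells of the small intestine carry a brush border, a dense layer of microvilli built on bundles of actin. VIL1 (villin) bundles that actin, and CDHR5 is a cadherin-like protein that links the tips of neighbouring microvilli together with CDHR2. RBP2 binds retinol inside the absorptive cell, where vitamin A from the diet is esterified and packed for export. FCGBP is a large protein of the mucus that goblet cells secrete. CCL5 is a chemokine made by activated T cells and natural killer cells, which are common in the gut mucosa, and it attracts leukocytes. Skeletal muscle fibres form no brush border and no mucus.

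The reads counted on genes ranged from 5683894 in Grain1 to 7447453 in Grass2. Levels are given in CPM, reads per 1000000 reads on genes, and a floor of 3 reads, the one-sided 95% limit that a count of 0 allows, was 0.528 CPM in Grain1 and 0.403 CPM in Grass2. The two-sided 95% intervals drawn in the plots end higher for a count of 0, at 0.649 CPM in Grain1 and 0.495 CPM in Grass2. Over all genes, limma with Benjamini-Hochberg adjustment called 0 of 10461 genes between diets at an adjusted p under 0.1, or 0.0%, with 918 at an unadjusted p under 0.05 (177 without Grass1, 2259 without Grain1 and 2570 without Grain2). Under edgeR, the quasi-likelihood test called 0 as well, with 920 at that p, and the likelihood ratio test called 173. The 49 of these higher on grass are 0.199% of the 24616 genes it tested, which include genes with no read. DESeq2 called 293, of which the 87 higher on grass are 0.534% of the 16288 genes with reads. The shares of these tests therefore have unlike denominators. The members were chosen on this contrast, so their own calls are not counted. An exact permutation test of 2 libraries against 2 cannot give a p under 0.333. The 24 skeletal muscle markers on the list used here have no identifier in the sources, so the labelled tissue was not checked against them.

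RBP2 (ENSBTAG00000015056), the cellular retinol-binding protein of the enterocyte, had 523 reads in Grass1. Grass2, Grain1 and Grain2 each had 0 reads. Both diets therefore held a library without a read, and the groups overlapped at 0. The 523 reads made 77.2 CPM, with an exact 95% Poisson interval of 70.7 to 84.1 that covers counting error only, as do all intervals and floors given here. At the same level, 575 reads would have been counted in Grass2, 439 in Grain1 and 504 in Grain2. Against a floor of 3 reads in Grass2, RBP2 was at least 192-fold higher in Grass1 than in the other library of the same diet, a ratio that rests on this floor and would be smaller with the two-sided limit, as would the other ratios against it. In bulk tissue, a smaller number of cells of a type and less RNA in each cell cannot be told apart.

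VIL1 (ENSBTAG00000018543), the actin-bundling protein of the microvillus core, was read in the same library alone. Its 371 reads in Grass1 stood against 0 in Grass2, 0 in Grain1 and 0 in Grain2. The level was 54.7 CPM (exact Poisson interval 49.3 to 60.6), which would correspond to 408 reads in Grass2. Within the grass-fed pair, VIL1 was at least 136-fold higher in Grass1, with the floor of 3 reads in Grass2.

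CDHR5 (ENSBTAG00000047914), the intermicrovillar cadherin, was the only member with reads in more than 1 library. It had 221 reads in Grass1, 23 in Grass2, 4 in Grain1 and 0 in Grain2. Both grass-fed libraries were above both grain-fed libraries, while most reads still came from the library that held the other members. In CPM the levels were 32.6, 3.09 and 0.704 in the libraries with reads, with exact Poisson intervals of 28.5 to 37.2, 1.96 to 4.63 and 0.192 to 1.8. Grass1 was 10.6-fold above Grass2 (exact 95% interval 6.86 to 17.0). Grass2 was 9.43-fold above the grain-fed libraries together (3.22 to 37.5), from 23 and 4 reads. All 4 of those reads were in Grain1, and against Grain1 alone the ratio was 4.39 (1.5 to 17.5). The intervals of the ratio between the steers on grass and of either ratio from the lower of them to grain overlapped.

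CDHR5 was also the only one of the 5 genes measured by the authors with quantitative PCR. The primers are shown because they are the designed sequences by which this gene was followed apart from the reads, and both are 20 bases long, with 10 and 12 G or C bases. They are written 5′ to 3′ in lower case, and no base is marked.
CDHR5 forward: agcagcttcttctccttggt
CDHR5 reverse: ctctgtggtctcctcctgtg
The quantitative PCR values are not used here.

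FCGBP (ENSBTAG00000005261), the mucus protein of goblet cells, had 313 reads in Grass1. No read was counted in Grass2, in Grain1 or in Grain2. Its level of 46.2 CPM (exact Poisson interval 41.2 to 51.6) would correspond to 344 reads in Grass2. Relative to the floor of 3 reads there, FCGBP was at least 115-fold higher in Grass1.

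CCL5 (ENSBTAG00000007191), the chemokine of T cells and natural killer cells, was read where RBP2, VIL1 and FCGBP were read. It had 428 reads in Grass1 and 0 in each of Grass2, Grain1 and Grain2. The level was 63.2 CPM (exact Poisson interval 57.3 to 69.4), and 470 reads would have been counted in Grass2 at that level. CCL5 was at least 157-fold higher in Grass1 than in Grass2, with the same floor.

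**Figure D1:**
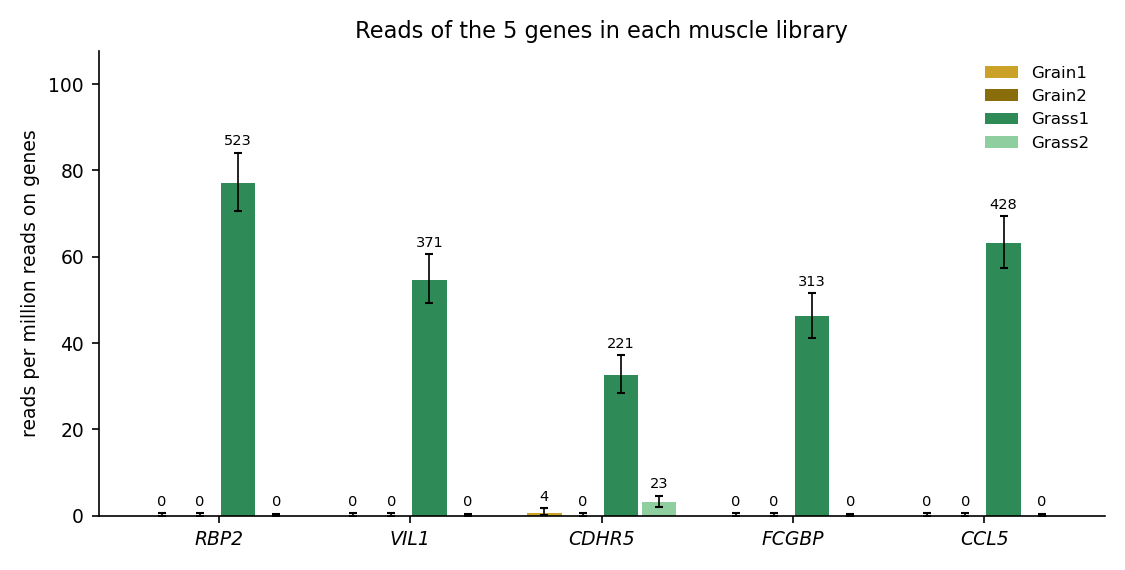
CPM (vertical axis, linear from 0) of the 5 genes in the 4 muscle libraries. Bars are single libraries, error lines are exact 95% Poisson intervals and the numbers above them are read counts; Grass1 holds the high bar of every gene, and CDHR5 alone has reads in Grass2 (23) and Grain1 (4).

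Over the 5 genes together, 1856 reads were counted in Grass1, 23 in Grass2, 4 in Grain1 and 0 in Grain2. The sum was 0.0274% of the reads on genes of Grass1. All 5 members had at least 75% of their CPM in that library, against a background of 5.35% of the 11424 genes with at least 20 reads. The share was 89.6% for CDHR5 and 100% for the other 4, and nothing is read from the count, since the members were chosen for it. Among the genes with 75% of their level in 1 library, 611 were in Grass1, 137 in Grass2, 201 in Grain1 and 174 in Grain2.

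The members differed from each other in what Grass2 contributed. Of the CDHR5 reads on grass, 9.43% came from Grass2, with an exact Clopper-Pearson interval of 6.07 to 13.8%. For RBP2, CCL5, VIL1 and FCGBP the same share was 0, with upper limits of 0.703, 0.858, 0.989 and 1.17%. The upper limits of these 4 genes lay below the lower limit for CDHR5. The members were chosen for their reads in these libraries, so the limits describe counting error and are no test between members. Grass2 had the most reads counted on genes of the libraries, and had reads for 13487 genes, against 14485 genes in Grass1.

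**Figure D2:**
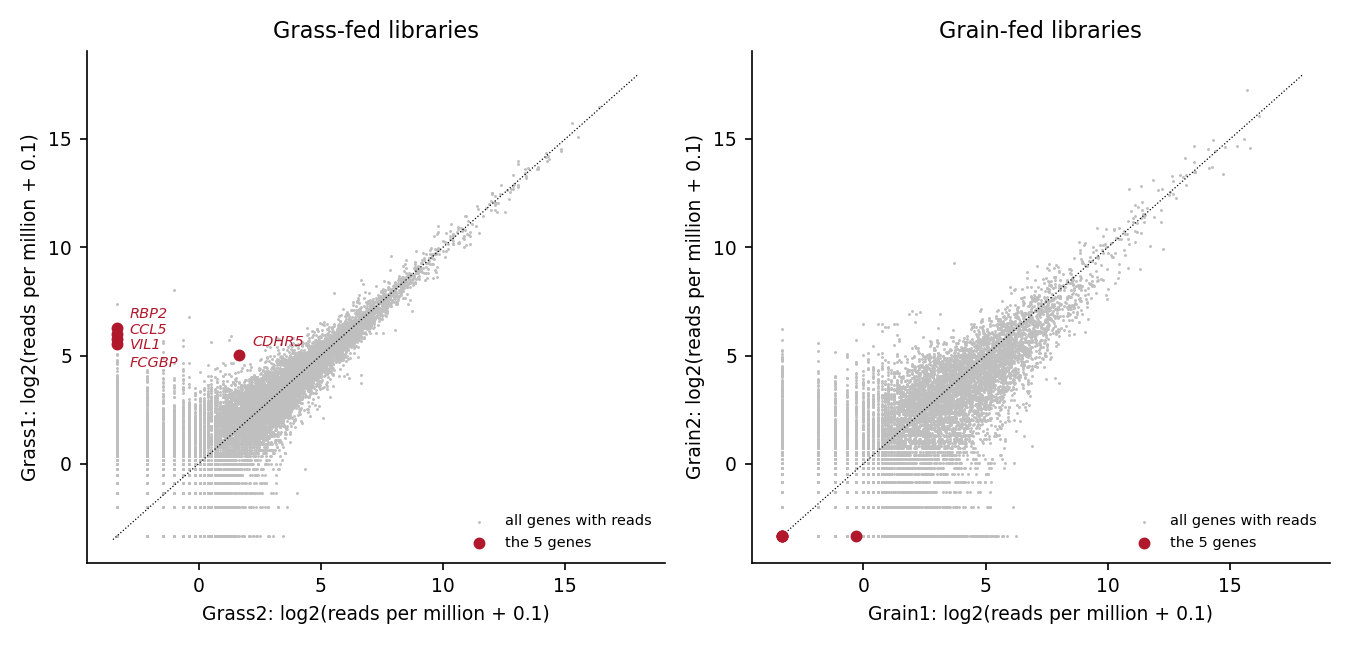
Log2 of CPM plus 0.1 for all genes with reads in any library (grey) and the 5 genes (red), Grass1 against Grass2 on the left and Grain2 against Grain1 on the right; the dotted line marks equal values. RBP2, CCL5, VIL1 and FCGBP lie at 0 reads in Grass2, CDHR5 lies above the line with 23 reads there, and in the grain-fed panel 4 of the genes share the point of 0 reads in both libraries.

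The comparison of diets asks which genes respond to the finishing feed. With the reads of a diet summed, and a floor of 3 reads for the Grain1 and Grain2 sum, the grass-fed level was at least 150-fold higher for RBP2, 123-fold for CCL5, 106-fold for VIL1 and 89.6-fold for FCGBP. For CDHR5 it was 52.4-fold higher (exact 95% interval 20.2 to 194). These ratios carry the counting error of the reads and not the difference between steers. On the deposited values, set per 1000000 of the mean column total, RBP2 had 29.6 ± 41.8 (SD, n = 2) on grass and 0 on grain, and CDHR5 had 13.7 ± 15.9 on grass and 0.385 ± 0.526 on grain. For VIL1 the grass-fed value was 21.0 ± 29.7, for CCL5 24.2 ± 34.2 and for FCGBP 17.7 on average, with 0 on grain. The grass-fed SD of CDHR5 was above the difference between the diet means. For the other 4 genes the SD of 2 values is above their mean whenever 1 of them is 0, so nothing about diet is read from it.

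On the log2(value + 1) scale of the same values, which understates the change of low genes, the difference of grass-fed minus grain-fed was 2.95 for RBP2, 2.71 for VIL1, 2.82 for CDHR5, 2.59 for FCGBP and 2.81 for CCL5. The gap between the 2 grass-fed libraries on the same scale was 5.91 for RBP2, 5.42 for VIL1, 5.19 for FCGBP and 5.63 for CCL5, which is above the difference between diets as follows from their 3 values at 0. For CDHR5 the gap of 2.92 was close to the difference of 2.82. With the columns brought to 1 common total the difference was 3.16, and the gap on that scaling is not given here. Without Grass1 no read of those 4 genes was left, and the difference of CDHR5 was 1.37. Without Grass2 the differences were between 4.28 for CDHR5 and 5.91 for RBP2. With a pseudocount of 4 in place of 1, the difference of RBP2 was 1.99 and that of CDHR5 1.64. The order also turned with the pseudocount, since CDHR5 went from the second highest of the 5 differences to the lowest, below FCGBP at 1.65, VIL1 at 1.76 and CCL5 at 1.86.

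**Figure D3:**
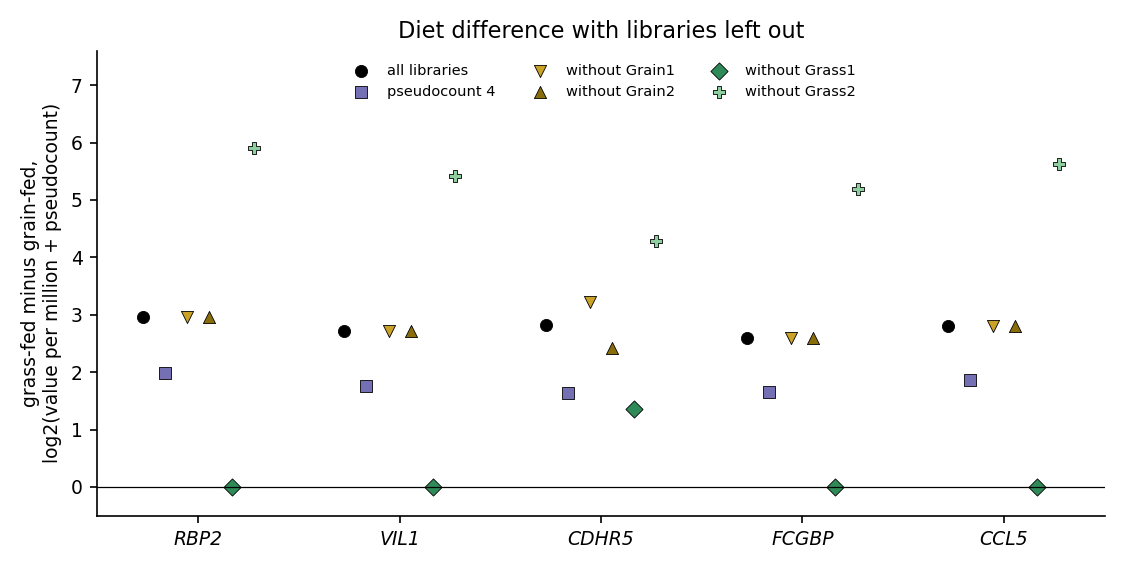
Grass-fed minus grain-fed difference of log2(value per 1000000 + pseudocount) for the 5 genes (vertical axis), with all libraries, with a pseudocount of 4, and with each library left out. The diamonds without Grass1 sit at 0 for RBP2, VIL1, FCGBP and CCL5 and at 1.37 for CDHR5, and the crosses without Grass2 are the highest points, from 4.28 to 5.91.

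Of the 5 members, 1 (CDHR5) had both grass-fed libraries above both grain-fed libraries, which was also the case for 24.9% of the 10461 genes tested. RBP2, VIL1, FCGBP and CCL5 did not, as Grass2 was at 0 with the grain-fed libraries.

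Counts of genes read in 1 library alone are given next as a description, since the members were chosen for their reads and the minimum is the count of a member. The lowest count of a member in Grass1 was 221 reads. Of the 2134 genes that reached it there, 6 had no read in the other 3 libraries, or 0.281%, and RBP2, CCL5, VIL1 and FCGBP are 4 of the 6. At the same minimum there were 4 such genes of 1706 in Grain1, 2 of 1467 in Grain2 and 0 of 2354 in Grass2. Among the 1382 genes read in Grass1 alone, RBP2 had the most reads, followed by CCL5 and VIL1, and FCGBP was number 5. By read count, without correction for transcript length, RBP2 was gene 938 of the 14485 read in that library and CDHR5 gene 2121. Which of the 5 genes had the higher expression per length was not analysed here, since no transcript lengths were used.

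Few other genes of the same cell types could be followed, because most identifiers are not paired with a name in the sources used here. Of 122 listed intestinal genes, 8 have an identifier, the 4 epithelial members and CDHR2, ALPI, FABP2 and KRT20. Of 71 listed lymphocyte genes, 3 have one, which are CCL5, LCK and GIMAP7. All of them have a name here only because the study picked them for their difference between diets in these libraries. Their direction and their calls restate that choice, and they passed the filter on low values only through Grass1, so nothing is read from the counts that follow. None of the other 6 genes passed the threshold in limma, against 0.0% of all genes tested, while the likelihood ratio test of edgeR called 5 (against 0.199% of all genes higher on grass) and DESeq2 called 2 (against 0.534%). All of these calls were higher on grass and rest almost entirely on reads in Grass1.

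CDHR2, the partner of CDHR5 at the microvillus tips, had 182 reads in Grass1 and none in the other 3. CDHR5 had 23 reads in Grass2, so the partners differed there. ALPI, the alkaline phosphatase of the brush border, had 224 reads in Grass1 and none elsewhere. FABP2, which binds fatty acids in the enterocyte, had 217 reads there and none elsewhere, and KRT20, a keratin of differentiated intestinal epithelium, had 146 in Grass1 alone. The 4 genes summed to 113 CPM in Grass1 and to 0 in each of the other libraries.

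The T cell genes had a few reads in Grass2, where CCL5 had none. LCK, a kinase of T cell receptor signalling, had 127 reads in Grass1, 7 in Grass2 and 0 in both grain-fed libraries. GIMAP7, a GTPase of lymphocytes, had 170, 5, 0 and 0 reads in the same order. Grass2 thus contributed 5.22% of the LCK reads on grass (exact Clopper-Pearson interval 2.13 to 10.5%) and 2.86% of the GIMAP7 reads (0.934 to 6.54%). The interval for CCL5 ended at 0.858%. CCL5, LCK and GIMAP7 were all picked from these libraries, so the intervals are no test between these genes. CD3, CD8 and immunoglobulin genes have no identifier here and are not analysed.

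**Figure D4:**
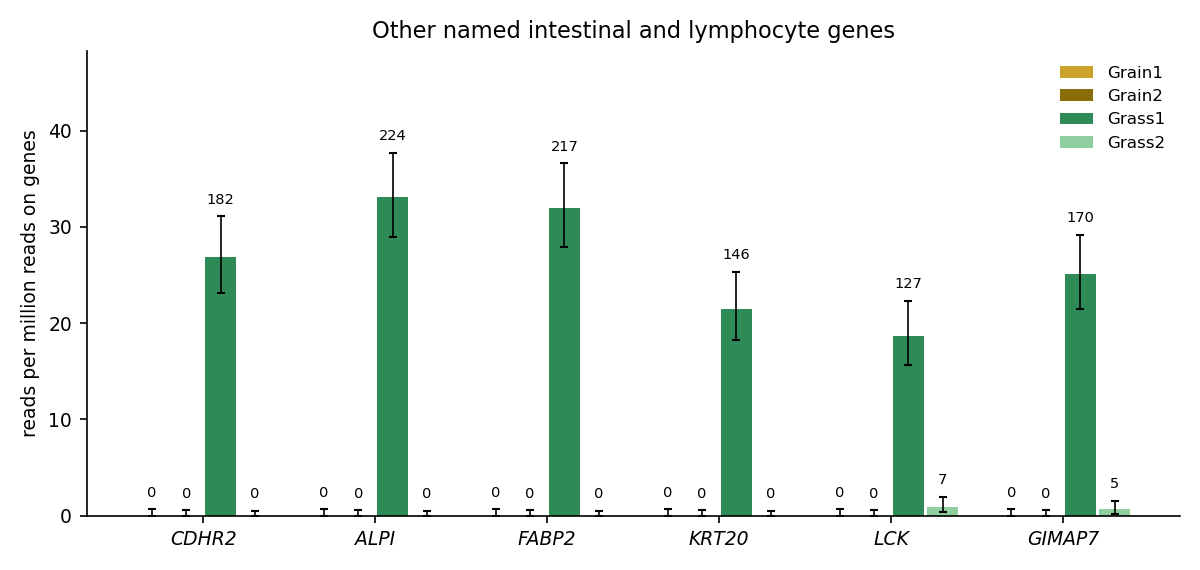
CPM (vertical axis, linear from 0) of CDHR2, ALPI, FABP2, KRT20, LCK and GIMAP7 in the 4 libraries, with exact 95% Poisson intervals and read counts above the bars. Each gene is high in Grass1, and LCK (7 reads) and GIMAP7 (5 reads) also have reads in Grass2.

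A few genes of other tissues also have a name, again because the study picked them from these libraries, so the libraries they were high in are a description only. The hepatocyte genes FGB, SERPINA3 and TTR summed to 2025 reads in Grain1, 86 in Grain2, 21 in Grass1 and 0 in Grass2. KRT5, of the basal epidermis, had 100 reads in Grain1, 189 in Grain2 and none on grass. The FGB sum and KRT5 come from 3 of 18 and 1 of 18 listed genes with an identifier. The 8 lists with no named gene gave no value: intestinal transcription factors, enteroendocrine cells, natural killer cells, B and plasma cells, macrophages, red blood cells, skeletal muscle and smooth muscle. Whether muscle, the diet or RNA of gut mucosa accounts for the reads of the 5 genes was not tested, and with 1 library holding nearly all of them these cannot be told apart.

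The genes most like the members were searched for by the distance between the shares of CPM in the 4 libraries, among genes with at least 100 reads. For RBP2, VIL1, FCGBP and CCL5, 10 other genes were at a distance of 0, and the 5 with most reads were ENSBTAG00000008505, with 370 reads in Grass1 and no name here, and ALPI, FABP2, CDHR2 and KRT20. For CDHR5 no gene had the same shares. The closest was ENSBTAG00000009137, also without a name, with 144 reads in Grass1, 12 in Grass2, 1 in Grain2 and 0 in Grain1, at a distance of 0.0373. LCK and GIMAP7 were not among the 5 closest genes of any member. For RBP2, VIL1, FCGBP and CCL5 this was fixed beforehand, since 10 genes were tied at 0 and LCK and GIMAP7 have reads in Grass2. For CDHR5 the 5 closest genes reached a distance of 0.0695, and the distances of LCK and GIMAP7 are not given here.

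The deposited values are adjusted counts, and the adjustment changed what is listed for these genes. Grass-fed counts were lowered by factors near 0.764 and 0.723 and grain-fed counts raised by factors near 1.31 and 1.38. RBP2 is listed at 400 in Grass1, from 523 reads. CDHR5 is listed at 169, 16.5 and 5.12 in the libraries with 221, 23 and 4 reads, and at 0.088 in Grain2, where 0 reads were counted. That value comes from the adjustment within the diet and is no read.

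In the RefSeq annotation of ARS-UCD2.0, another build than the one the reads were aligned to, VIL1, FCGBP, CDHR5 and CCL5 overlap no other gene, and RBP2 overlaps 1 small nucleolar RNA gene. CCL5 lies next to CCL16, another chemokine gene, whose identifier is not paired with a name here. Reads shared between related genes were not tested.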

How the data were processed

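RNA-Seq reads of 50 bases from muscle of 2 grass-fed and 2 grain-fed steers were used. The authors aligned them with Bowtie to BosTau6 (UMD3.1), counted them with GenomicRanges and analysed them with edgeR. Versions, strand and the handling of reads with several matches were not stated. The labels describe total RNA and the methods mRNA. The deposited values are a signal, edgeR pseudo-counts brought by the authors to 1 common effective library size over all libraries, with the quantile adjustment made within each diet. The scaling was inverted here, which gave back whole numbers of reads in 100% of genes read in a diet (relative tolerance 1e-05), a step tested on simulated data. Columns name the diet and not the steer.

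Diets were compared with limma 3.58.1 (mean-variance trend) after log2(value + 1), values being per 1000000 of the mean column total, where that mean reached 1, at a Benjamini-Hochberg adjusted p under 0.1. A count test had been planned for the case of whole counts and was run on the recovered reads as an alternative with edgeR 4.0.16 and DESeq2 1.42.0 (R 4.3.3). Other alternatives were the pseudocount, the filter, the scaling, the share and read minimum, and each library left out. The tests were tried on simulated counts.

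The members and the 18 gene lists were chosen with earlier results of these data known. Genes named are the members and the listed genes with an identifier. Also named are the 5 genes with the closest library shares to RBP2, VIL1, FCGBP and CCL5, and the closest gene to CDHR5. Identifiers were paired with names through the primer table and the log ratios of the pathway table, which gave 27 names and the same name in the 5 cases with another source; 15 of 281 listed symbols were paired. RefSeq was used for the overlaps and neighbours of the members, with no coordinates printed. Protein sequences are not used here.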

Additional observations from a re-analysis of the deposited data

How the results depend on the processing

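Limma called 0 genes between diets with either pseudocount, with and without the filter, with columns brought to 1 common total, and without any 1 of the libraries (range 0 to 0), and the quasi-likelihood test of edgeR called 0 on the recovered reads. The number at an unadjusted p under 0.05 was not stable: 918 as reported, 1540 with the common total, and 177 to 2570 with a library left out, where the spread comes from the pair of the other diet and is taken to hold for the lone library. The likelihood ratio test of edgeR called 173 genes, 49 higher and 124 lower on grass, and DESeq2 called 293, 87 higher and 206 lower; the cause was not tested. Of the 6 named intestinal and lymphocyte genes other than the members, limma and the quasi-likelihood test called 0, the likelihood ratio test 5 (ALPI, CDHR2, FABP2, GIMAP7 and LCK, against 0.199% of all genes higher on grass) and DESeq2 2 (GIMAP7 and LCK, against 0.534%), which restates how the study picked these genes from the same libraries. Without Grass1 none of the 6 passed the filter.

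All 5 members had at least 75% of their level in 1 library, and 4 had at least 90%, with CDHR5 at 89.6%. With libraries left out the number went from 1 to 5; the 1 is CDHR5 without Grass1, mainly in Grass2, and the other 4 had no reads left. For the other intestinal genes the range was 0 to 4 and for LCK and GIMAP7 0 to 2, with the 0 in both cases from leaving out Grass1, as too few reads were left. The differences of the members moved by less than the SD between libraries of a diet under every setting, but leaving out 1 of 2 libraries cannot move a mean by more than that SD, so this says nothing of their stability: without Grass1, RBP2 went from 2.95 to 0. Scaling moved the median log2 difference over the genes tested from 0.11 (as deposited) to 0.67 (common total), where RBP2 was at 3.14 and CDHR5 at 3.16. No paired analysis was possible because the diets had different steers. The replicate numbers are the same in both diets, but no label ties a steer on grass to a steer on grain.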
